A study of Mus musculus with 6 samples.

Results

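The collagen genes are the 44 protein-coding genes in the deposited count table whose symbol has the form Col, a number, a and a number, out of 55416 genes in all. They were picked by the form of their name and sorted by protein family into 11 fibrillar genes, 6 basement membrane (type IV) genes and 27 genes of other types. The choice was made with earlier results of these data known. RNA sequencing had been performed on the tibialis anterior (TA) muscle of aged mice, with 3 wild-type (WT) and 3 SELENOW knockout (KO) mice. All samples came from mice that had aged naturally to 24 months, and the study's methods describe aged males on a C57BL/6N background. The KO line lacked exon 4 of Selenow, removed with guide RNAs, and the methods name no tissue-specific driver. P-values therefore measure the spread between 3 mice of each genotype.

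Collagens are extracellular matrix proteins whose alpha chains wind into a helix rich in glycine and proline. Fibrillar collagens assemble into the load-bearing fibrils between muscle fibers, type IV collagens form the sheet of the basement membrane around each fiber and capillary, and the remaining types link, coat or anchor these structures. In skeletal muscle most fibrillar collagen is made by fibroblasts, and type IV chains are made by fibers, endothelial cells and fibroblasts alike. In bulk muscle RNA, fewer cells of a type and less RNA per cell cannot be told apart.

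Libraries held from 25351976 to 29111213 counts. Mitochondrially encoded genes took 29.1 to 37.3% of the counts in WT and 35.4 to 40.3% in KO. Selenow itself was at 268, 245 and 219 CPM (TMM-scaled counts relative to the library total) in WT and at 193, 212 and 210 CPM in KO, a log2 fold change of -0.25 with a standard error (SE) of 0.14 (adjusted p = 0.604 with edgeR's quasi-likelihood test, exact permutation p = 0.1, two-sided, the smallest that 3 against 3 samples can give). The highest KO value was under the lowest WT value, but the count covers the whole gene and is not split by exon, so it does not check the loss of exon 4. Of 15623 genes tested, 836 (5.35%) passed the study's DEG thresholds, an unadjusted p under 0.05 with a fold change over 1.5 or under 0.7. Of these, 345 (2.21%) were higher and 491 (3.14%) lower in KO. No gene had an adjusted p under 0.05 with edgeR, where 1545 genes had an unadjusted p under 0.05, and 45 genes did with DESeq2.

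Enough counts for a test were present for 30 of the 44 collagen genes: 9 fibrillar, 5 basement membrane and 16 of other types. The remaining 14 had between 3 and 32 counts in total over the 6 libraries, which is too few to compare. They were Col2a1 and Col11a1 among the fibrillar genes, Col4a6 of the basement membrane, and Col6a4, Col6a5, Col8a2, Col9a2, Col9a3, Col10a1, Col17a1, Col19a1, Col25a1, Col26a1 and Col28a1. Col2a1, the main fibril chain of cartilage, had 3 counts, and Col10a1, the collagen of growth-plate cartilage, had 5.

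Collagen transcripts were a small part of the aged TA muscle. All 44 genes together took between 0.0151% and 0.0441% of the counts of a library. Levels of different genes were compared as RPKM, the TMM-scaled count per kilobase of merged exons and relative to the library total. The highest mean levels over the 6 libraries were those of Col4a1 at 4.01 RPKM, Col7a1 at 3.69, Col3a1 at 3.40 and Col4a2 at 3.20. Col6a1 followed at 2.13 RPKM, Col1a1 at 1.63, Col1a2 at 1.58 and Col5a3 at 1.38. The library values of neighbours in this order overlapped throughout, and those of Col3a1 alone spanned 0.976 to 9.10 RPKM. The order also depended on the length used. Per kilobase of the longest coding transcript Col3a1 led with 6.0, ahead of Col4a1 with 4.53 and Col7a1 with 4.10, and Col1a2 moved from the 7th to the 4th place, because its merged exons are 2.32 times as long as its longest coding transcript.

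**Figure D1:**
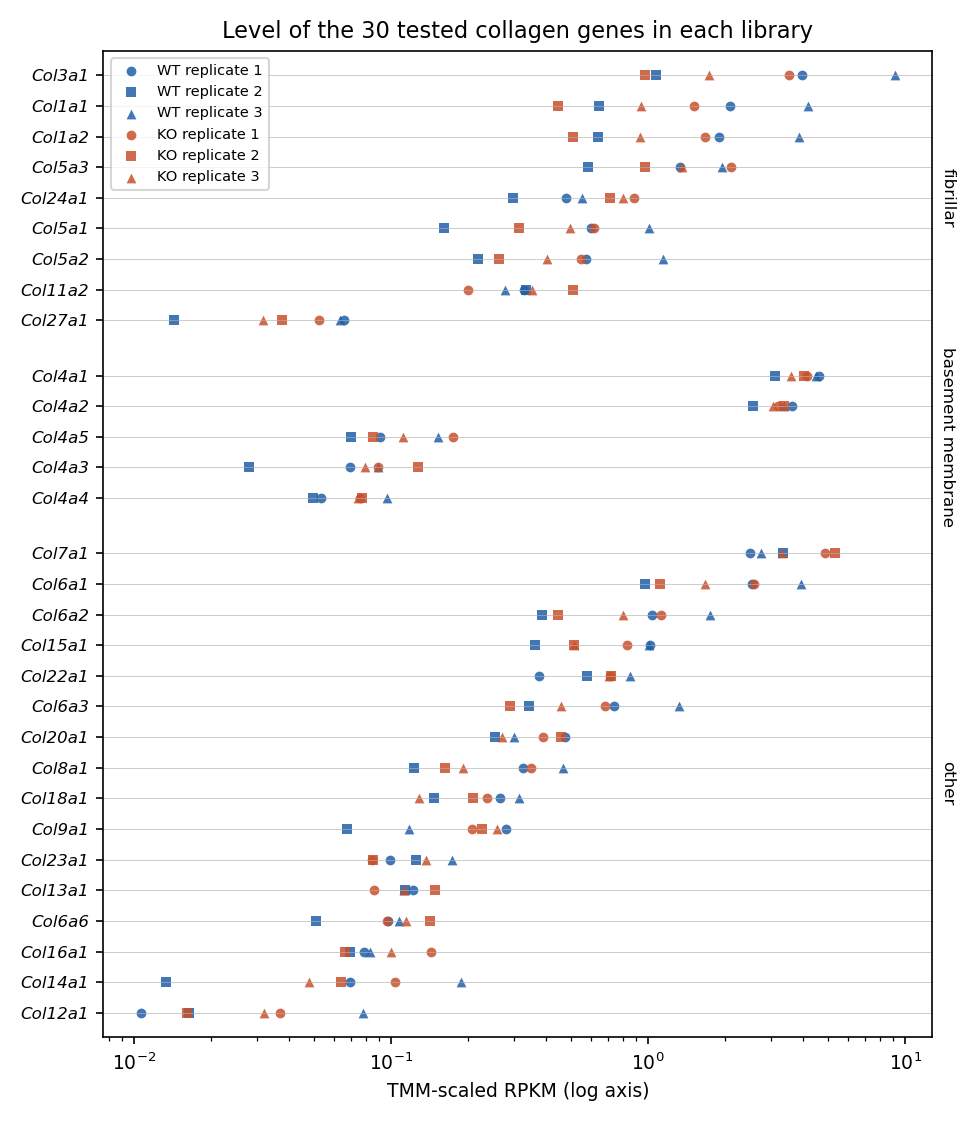
TMM-scaled RPKM on a log axis for the 30 tested collagen genes in each of the 6 libraries, with WT in blue, KO in orange and the marker shape giving the replicate number. Genes are grouped as fibrillar, basement membrane and other, and Col24a1 is the gene in which all 3 KO points lie above all 3 WT points.

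Between genotypes, 2 of the 30 tested collagen genes passed the DEG thresholds, against 5.35% of all genes tested, and both were higher in KO, the direction of 2.21% of all genes. They were Col7a1, the chain of the anchoring fibrils that fasten epithelial basement membranes to the tissue beneath, and Col24a1, a low-abundance fibrillar chain. Neither had an adjusted p under 0.05. No collagen gene passed as lower in KO, the direction of 3.14% of all genes. The libraries of WT and KO did not overlap for 1 of 30 collagen genes, Col24a1, against 15.4% of all genes tested. The median log2 fold change was -0.13 over the 30 collagen genes and -0.004 over all genes, with 17 collagen genes estimated lower and 13 higher in KO.

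Col24a1 (ENSMUSG00000028197, on chromosome 3) encodes a fibrillar chain known from developing bone and cornea. Its level was 0.479, 0.298 and 0.553 RPKM in WT replicates 1 to 3 and 0.883, 0.712 and 0.80 RPKM in KO replicates 1 to 3. The lowest KO library was above the highest WT library, and the means were 0.444 ± 0.131 and 0.798 ± 0.086 RPKM (SD, n = 3). The fold change was 1.80 (log2 0.85, SE 0.23, 95% interval 0.36 to 1.34), with adjusted p = 0.299 in edgeR's quasi-likelihood test and adjusted p = 0.136 with DESeq2. This rested on 73 to 167 counts per library. Leaving out any single library kept Col24a1 past the DEG thresholds, with log2 fold changes from 0.63 to 1.05.

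Col7a1 (ENSMUSG00000025650, on chromosome 9) was the more abundant of the pair. Its level was 2.49, 3.34 and 2.74 RPKM in WT and 4.87, 5.35 and 3.32 RPKM in KO. KO replicates 1 and 2 stood above every WT library, and KO replicate 3 lay just under WT replicate 2, so the groups overlapped. The means were 2.86 ± 0.439 and 4.51 ± 1.06 RPKM (SD, n = 3), a fold change of 1.58 (log2 0.66, SE 0.18, 95% interval 0.26 to 1.06). The adjusted p was 0.301 in edgeR's quasi-likelihood test and 0.113 with DESeq2. The fold limit of 1.5 was close. Without WT replicate 1 the log2 fold change was 0.57 and without KO replicate 2 it was 0.52, both under that limit. A microRNA gene, Mir711, shares 36 exon bases with Col7a1 on the same strand and had 225 counts in the table, against 6100 for Col7a1.

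The promoter windows of these genes, from RefSeq, show the sequence at the starts of the collagen genes past the DEG thresholds. Each window holds 250 bases before and 50 after the annotated gene start, in GRCm38.p6, written 5′ to 3′ on the gene's strand. The Col7a1 window is chr9:108953336-108953635 and the Col24a1 window is chr3:145292222-145292521, both on the plus strand. Capitals mark matches, on either strand, to the CCAAT box (searched as the letters CCAAT), to the TATA box (searched as the letters TATAAA) and to the GC box (searched as the letters GGGCGG).
Col7a1: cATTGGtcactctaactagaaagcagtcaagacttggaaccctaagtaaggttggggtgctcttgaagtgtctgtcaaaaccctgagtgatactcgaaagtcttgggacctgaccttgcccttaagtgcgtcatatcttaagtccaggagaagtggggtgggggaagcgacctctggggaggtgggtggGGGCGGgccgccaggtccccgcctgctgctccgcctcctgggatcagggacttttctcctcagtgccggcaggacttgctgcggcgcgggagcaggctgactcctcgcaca
Col24a1: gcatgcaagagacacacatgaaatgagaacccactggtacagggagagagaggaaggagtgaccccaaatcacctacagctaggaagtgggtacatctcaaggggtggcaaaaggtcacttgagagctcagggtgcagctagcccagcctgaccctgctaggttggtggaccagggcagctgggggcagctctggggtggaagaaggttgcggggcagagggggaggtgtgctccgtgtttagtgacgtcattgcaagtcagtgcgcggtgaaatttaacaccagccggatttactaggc
The Col7a1 window held 1 GC box and, at its far end, 1 CCAAT box on the reverse strand. The Col24a1 window held no match to the 3 motifs. Guanine and cytosine made up 58.7% of the Col7a1 window and 56.3% of the Col24a1 window.

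Among the fibrillar genes, those of the major interstitial collagens were the most abundant and the most variable. Col3a1, the chain of type III collagen in the endomysium and perimysium, was at 3.99, 1.07 and 9.10 RPKM in WT and at 3.54, 0.976 and 1.73 RPKM in KO. WT replicate 3 was the highest and KO replicate 2 the lowest library, 9.32-fold apart, with WT replicate 2 close to the lowest. The log2 fold change was -1.18 (SE 0.96, 95% interval -3.78 to 1.42), with adjusted p = 0.741 in edgeR's quasi-likelihood test.

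Type I collagen, the main load-bearing fibril, is built from chains of Col1a1 and Col1a2. Col1a1 was at 2.08, 0.645 and 4.18 RPKM in WT and at 1.51, 0.447 and 0.935 RPKM in KO. Col1a2 was at 1.88, 0.639 and 3.88 RPKM in WT and at 1.66, 0.512 and 0.933 RPKM in KO. For both chains WT replicate 3 was the highest and KO replicate 2 the lowest library, and the groups overlapped because WT replicate 2 lay under KO replicates 1 and 3. The log2 fold changes were -1.25 (SE 0.86, adjusted p = 0.692) for Col1a1 and -1.04 (SE 0.83, adjusted p = 0.735) for Col1a2 in edgeR's quasi-likelihood test. Col1a1, Col3a1 and Col1a2 thus had the largest negative estimates of all collagen genes, and each 95% interval included 0. The value rested on WT replicate 3: without that library the log2 fold changes were -0.48 for Col1a1, -0.27 for Col3a1 and -0.28 for Col1a2.

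The promoter windows of Col1a2 and Col3a1 are shown because the levels of these genes varied together from library to library. They are chr6:4505368-4505667 and chr1:45311288-45311587, both on the plus strand of GRCm38.p6, with the same capitals.
Col1a2: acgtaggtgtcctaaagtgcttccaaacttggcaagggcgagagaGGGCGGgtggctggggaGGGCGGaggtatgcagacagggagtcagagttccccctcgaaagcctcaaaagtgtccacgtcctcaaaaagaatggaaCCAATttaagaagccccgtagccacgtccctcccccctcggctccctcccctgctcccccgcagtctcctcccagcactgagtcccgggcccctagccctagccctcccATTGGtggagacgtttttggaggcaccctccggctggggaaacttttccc
Col3a1: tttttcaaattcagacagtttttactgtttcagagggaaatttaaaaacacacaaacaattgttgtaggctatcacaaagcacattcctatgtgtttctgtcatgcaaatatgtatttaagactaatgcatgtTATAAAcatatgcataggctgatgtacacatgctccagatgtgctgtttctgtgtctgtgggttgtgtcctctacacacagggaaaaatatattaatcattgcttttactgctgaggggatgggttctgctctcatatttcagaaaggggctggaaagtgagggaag
The windows differed in base composition and in the marked letters. The Col1a2 window was 61.0% guanine and cytosine, with 2 GC boxes and a CCAAT box on each strand. The Col3a1 window was 37.7% guanine and cytosine and held 1 TATA box.

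The other fibrillar genes were lower. Type V collagen sits inside type I fibrils and limits their width. Its chain Col5a1 was at 0.597, 0.160 and 1.0 RPKM in WT and at 0.616, 0.314 and 0.498 RPKM in KO (log2 fold change -0.30, SE 0.69, adjusted p = 0.918 with edgeR). Its partner Col5a2 was at 0.575, 0.217 and 1.14 RPKM in WT and at 0.550, 0.264 and 0.406 RPKM in KO (log2 fold change -0.66, SE 0.66, adjusted p = 0.782 with edgeR). WT replicates 3 and 2 were the highest and the lowest library for both chains, so all KO values lay between WT values. Col5a3, another type V chain, was at 0.585 to 1.94 RPKM in WT and 0.976 to 2.09 RPKM in KO. The estimates were 0.20 for Col5a3, 0.17 for Col11a2, a type XI chain, and -0.21 for Col27a1, a chain known from cartilage, and none passed a threshold. Over the 9 tested fibrillar genes the median log2 fold change was -0.30, with 6 estimated lower and 3 higher in KO, and 1 of 9 passed the DEG thresholds.

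The abundant basement membrane genes had estimates near 0. Col4a1 and Col4a2 encode the chains of the type IV collagen found around every fiber and vessel. Col4a1 was at 4.63, 3.11 and 4.50 RPKM in WT and at 4.16, 4.06 and 3.61 RPKM in KO, with means of 4.08 ± 0.841 and 3.94 ± 0.291 RPKM (SD, n = 3). Col4a2 was at 3.62, 2.56 and 3.37 RPKM in WT and at 3.21, 3.38 and 3.06 RPKM in KO. WT replicate 1 was the highest and WT replicate 2 the lowest library for both, so that every KO library lay inside the WT range. The log2 fold change was -0.05 (95% interval -0.39 to 0.29, adjusted p = 0.945) for Col4a1 and 0.01 (95% interval -0.30 to 0.33, adjusted p = 0.979) for Col4a2 in edgeR's quasi-likelihood test. These were the narrowest intervals among the collagen genes.

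Col4a1 and Col4a2 lie head to head on chromosome 8, and their promoter windows are shown because they share sequence. The Col4a1 window is chr8:11312777-11313076 on the minus strand and the Col4a2 window is chr8:11312555-11312854 on the plus strand of GRCm38.p6.
Col4a1: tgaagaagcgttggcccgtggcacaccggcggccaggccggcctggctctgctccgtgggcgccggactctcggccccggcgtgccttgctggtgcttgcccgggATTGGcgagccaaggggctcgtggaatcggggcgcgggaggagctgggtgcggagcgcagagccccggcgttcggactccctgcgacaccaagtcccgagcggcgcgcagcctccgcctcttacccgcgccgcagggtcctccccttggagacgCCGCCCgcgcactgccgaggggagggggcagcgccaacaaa
Col4a2: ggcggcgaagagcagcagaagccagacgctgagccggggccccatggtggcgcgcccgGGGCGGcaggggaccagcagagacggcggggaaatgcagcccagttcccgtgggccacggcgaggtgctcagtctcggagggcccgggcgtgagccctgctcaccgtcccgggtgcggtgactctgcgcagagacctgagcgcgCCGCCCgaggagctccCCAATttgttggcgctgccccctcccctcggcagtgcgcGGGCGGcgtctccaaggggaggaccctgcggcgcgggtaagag
The windows had 78 bases in common, and the first bases of the annotated genes were at 11312826 for Col4a1 and 11312805 for Col4a2, so that 22 bases were annotated as transcribed in both directions. Guanine and cytosine made up 74.0% and 73.7% of the windows, and both held a CCAAT box and a GC box but no TATA box. The only GC box of the Col4a1 window was the same site as 1 of the 3 in the Col4a2 window. That site lay inside the 22 bases, after the first base of both genes.

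The remaining tested type IV genes were near the limit of detection, at 9 to 31 counts per library. Col4a3 and Col4a4, chains best known from the kidney filter, also lie as neighbours, on chromosome 1. Col4a3 was at 0.0692, 0.0281 and 0.0892 RPKM in WT and at 0.0889, 0.127 and 0.0788 RPKM in KO. Its estimate of 0.66 (SE 0.45, adjusted p = 0.658 with edgeR) was the second largest rise in estimate among the collagen genes and did not pass a threshold. Col4a3 shares 563 exon bases on the opposite strand with C430014B12Rik, a noncoding gene with 563 counts against 127 for Col4a3, and reads of these genes cannot be told apart if counting ignored strand. Col4a4 was at 0.0535, 0.0499 and 0.0962 RPKM in WT and at 0.0759, 0.0768 and 0.0740 RPKM in KO (log2 fold change 0.18, SE 0.39, adjusted p = 0.908 with edgeR). Col4a5, on the X chromosome, had an estimate of 0.24. The median over the 5 tested type IV genes was 0.18, and 0.55 without WT replicate 3, with 4 estimated higher and 1 lower in KO, and none passed the DEG thresholds.

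Type VI collagen forms beaded filaments that tie the basement membrane of the fiber to the interstitium, and defects in its chains cause congenital muscular dystrophy in humans. Col6a1 was at 2.53, 0.974 and 3.92 RPKM in WT and at 2.58, 1.11 and 1.67 RPKM in KO. Col6a2 was at 1.04, 0.385 and 1.74 RPKM in WT and at 1.12, 0.446 and 0.795 RPKM in KO. Col6a3 was at 0.736, 0.344 and 1.32 RPKM in WT and at 0.680, 0.290 and 0.457 RPKM in KO. In all 3 chains WT replicate 3 was the highest library and replicate 2 of each genotype was low. The log2 fold changes were -0.47 (SE 0.61, adjusted p = 0.839) for Col6a1, -0.42 (SE 0.66, adjusted p = 0.872) for Col6a2 and -0.75 (SE 0.59, adjusted p = 0.73) for Col6a3 in edgeR's quasi-likelihood test. Without WT replicate 3 they were 0.04, 0.16 and -0.17. Col6a6, a later-discovered chain related to Col6a3, was at 0.0509 to 0.108 RPKM in WT and 0.0967 to 0.142 RPKM in KO, with an estimate of 0.47.

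The fibril-associated collagens (FACITs) coat fibrils and do not form them. Col22a1, a chain of the muscle-tendon junction, was the most abundant, at 0.375, 0.578 and 0.852 RPKM in WT and at 0.713, 0.718 and 0.703 RPKM in KO. The KO libraries were almost level and inside the WT range, and the estimate was 0.23 (SE 0.25, adjusted p = 0.782 with edgeR). Col9a1 had an estimate of 0.60 on 11 to 35 counts per library. It passed the DEG thresholds without WT replicate 1, at 1.32, and was at 0.23 without WT replicate 2. The estimates were 0.42 for Col16a1, 0.13 for Col20a1, -0.33 for Col14a1 and -0.32 for Col12a1, none past a threshold. Col14a1 spanned 14.1-fold and Col12a1 7.31-fold between libraries, on as few as 3 and 4 counts. Of the 6 tested FACIT genes, 4 were estimated higher and 2 lower in KO.

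Col15a1 and Col18a1, the multiplexins of basement membrane zones, both had negative estimates, of -0.36 and -0.34. The same held for Col8a1, a short-chain network collagen of vessel walls, at -0.38, and for the transmembrane chain Col23a1 at -0.37. Col13a1, a transmembrane collagen of the neuromuscular junction, was at 0.113 to 0.121 RPKM in WT and 0.0860 to 0.148 RPKM in KO, with an estimate of -0.00 (SE 0.41). Over the 16 tested genes of other types the median log2 fold change was -0.32, with 10 estimated lower and 6 higher, and 1, Col7a1, passed the DEG thresholds.

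**Figure D2:**
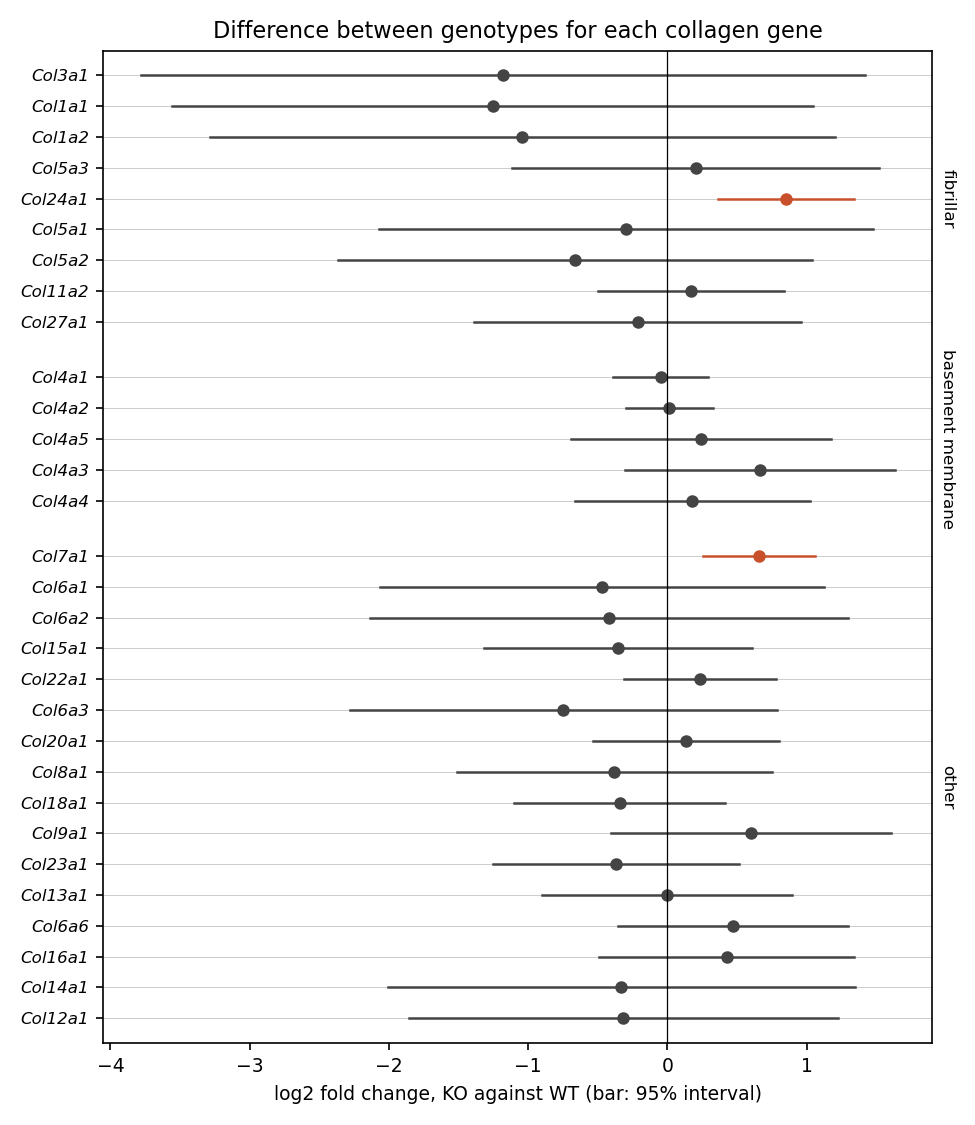
Log2 fold change of KO against WT for the 30 tested collagen genes, with 95% intervals as bars and the genes past the DEG thresholds in orange. The intervals of Col24a1 and Col7a1 lie above 0, those of Col4a1 and Col4a2 are narrow around 0, and those of Col3a1, Col1a1 and Col1a2 reach from below -3 to above 1.

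The wide intervals of the interstitial genes came with large differences between libraries of the same genotype. The ratio of the highest to the lowest library had a median of 3.27 over the 30 collagen genes, against 1.62 over all genes tested. It was 5.24 for the fibrillar genes and 1.93 for the basement membrane genes. Low counts widen this ratio, and the sets of genes were not matched for counts. WT replicate 3 was the highest of the 6 libraries for 15 of 30 collagen genes, and for 16.2% of all genes tested. It was highest for 5 of 9 fibrillar genes, 9 of 16 genes of other types and 1 of 5 basement membrane genes.

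Summed by type, the fibrillar genes were at 11.3, 3.97 and 22.2 RPKM in WT and at 11.1, 4.75 and 7.05 RPKM in KO. The type VI genes were at 4.40, 1.76 and 7.09 RPKM in WT and at 4.50, 1.99 and 3.05 RPKM in KO. The type IV genes were at 8.47, 5.85 and 8.21 RPKM in WT and at 7.71, 7.75 and 6.94 RPKM in KO. The fibrillar and type VI sums therefore went up and down across the same libraries, while the type IV sum moved by 1.45-fold at most, and all of these sums overlapped between genotypes. Fibrillar genes made up 37.9, 23.5 and 50.2% of the summed collagen RPKM in WT and 35.3, 20.9 and 30.7% in KO. The mean sum over all collagen genes was 30.3 ± 13.6 RPKM in WT and 25.7 ± 5.02 RPKM in KO (SD, n = 3), a ratio of 0.849 that became 1.10 without WT replicate 3.

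How closely single genes kept step with Col1a2 was described by the SD, over the 6 libraries, of the log2 ratio of their RPKM to that of Col1a2. It was 0.13 for Col1a1, 0.17 for Col3a1, 0.29 for Col6a3, 0.32 for Col5a2 and 0.37 for both Col6a1 and Col6a2. The log2 RPKM of Col1a2 itself had an SD of 1.09. The SD was 0.96 for Col4a1, 1.02 for Col4a2, 1.18 for Col24a1, 1.39 for Col7a1 and 1.42 for Col11a2. All values of a library share its depth and scaling.

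**Figure D3:**
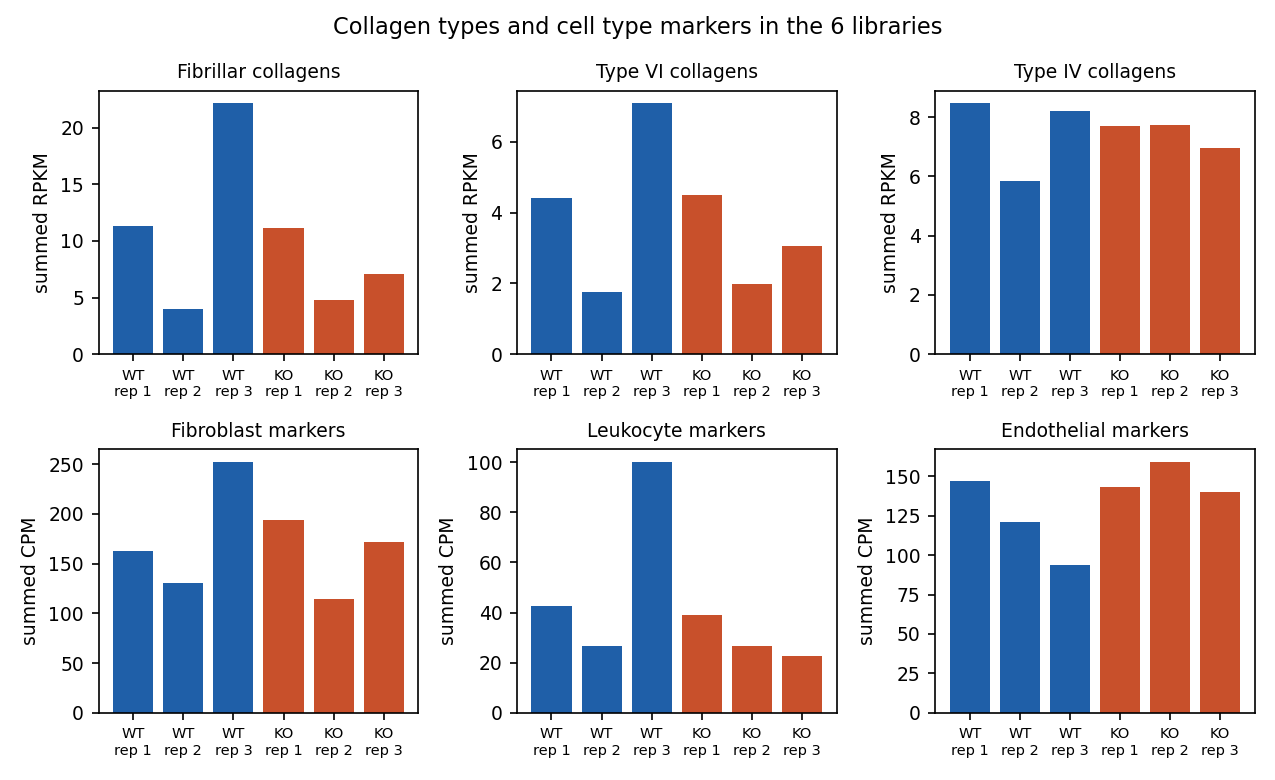
Summed RPKM of the fibrillar, type VI and type IV collagen genes (upper row) and summed CPM of fibroblast, leukocyte and endothelial marker genes (lower row) in each library, as bars from 0, with WT in blue and KO in orange. WT replicate 3 has the tallest bar for fibrillar and type VI genes and for fibroblast and leukocyte markers, and the shortest for endothelial markers.

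The fibroblast and leukocyte marker sums were highest in WT replicate 3, like the fibrillar and type VI sums. The marker sums of the other cell types were highest in other libraries. The 12 fibroblast markers summed to 163, 130 and 253 CPM in WT and to 194, 114 and 172 CPM in KO, and 9 of them were highest in WT replicate 3 and 7 lowest in KO replicate 2. The 15 leukocyte markers summed to 42.4, 26.7 and 100.3 CPM in WT and to 39.1, 26.8 and 22.7 CPM in KO, with 11 of the 13 tested highest in WT replicate 3. The sum of the 10 endothelial markers was lowest in WT replicate 3, as were 8 of the 10 genes, at 147, 121 and 93.6 CPM in WT and at 143, 159 and 140 CPM in KO. The tendon cell markers, 3 of 8 of them tested, summed to 53.8, 23.2 and 43.2 CPM in WT and to 44.8, 15.9 and 26.9 CPM in KO, most of it from Thbs4, and Tnmd and Mkx were at or under 0.560 CPM in every library. The adipocyte markers, also lowest in WT replicate 3, summed to 480.6, 477.7 and 340.6 CPM in WT and to 415.3, 443.1 and 476.8 CPM in KO. The smooth muscle and pericyte markers summed to 296.4, 287.1 and 293.2 CPM in WT and to 360.5, 446.6 and 355.1 CPM in KO. The Schwann cell markers summed to 29.25, 22.79 and 32.18 CPM in WT and to 30.37, 28.5 and 35.2 CPM in KO. The part of these cells in the collagen differences was not tested. The muscle fiber markers summed to between 94340 and 127500 CPM.

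Leaving out each library in turn moved the medians of the collagen types. Without WT replicate 3 the median log2 fold change became 0.07 for the fibrillar, 0.55 for the basement membrane and 0.12 for the other types, so that the sign turned for the first and the last. Without WT replicate 2, the library with the lowest fibrillar sum, the medians were -0.75, 0.01 and -0.51. In that setting 7 of 30 collagen genes passed the DEG thresholds, against 6.21% of all genes: Col24a1 and Col7a1 as higher in KO, and Col5a1, Col5a2, Col6a3, Col8a1 and Col15a1 as lower. The median over all 30 genes lay between -0.31 and 0.08 and was above 0 without WT replicate 1 (0.01) or WT replicate 3. Col24a1 was past the thresholds with each of the 6 libraries left out.

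**Figure D4:**
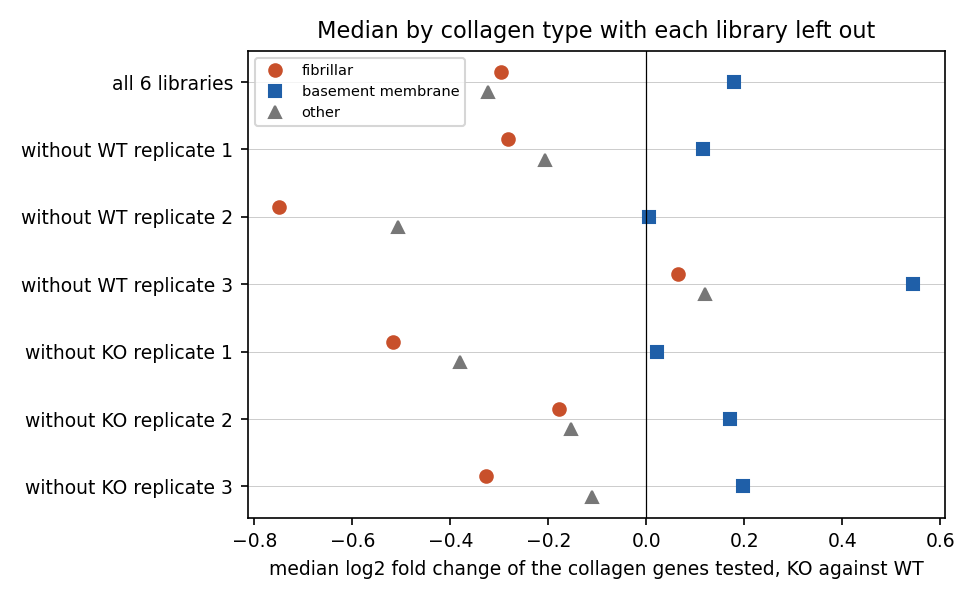
Median log2 fold change, KO against WT, of the tested fibrillar, basement membrane and other collagen genes with all 6 libraries and with each library left out. The fibrillar and other medians lie below 0 in each setting except without WT replicate 3, and the basement membrane median lies above 0 in all of them, at 0.01 without WT replicate 2.

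The proportions of chains that assemble together are described as ratios of RPKM, with no test. The ratio of Col4a1 to Col4a2 was 1.28, 1.21 and 1.33 in WT and 1.30, 1.2 and 1.18 in KO. The ratio of Col6a1 to Col6a2 was 2.44, 2.53 and 2.26 in WT and 2.31, 2.49 and 2.09 in KO. Both ranges overlapped between genotypes. The ratio of Col1a1 to Col1a2 was 1.10, 1.01 and 1.08 in WT and 0.910, 0.874 and 1.0 in KO. The groups did not overlap, and WT replicate 2 and KO replicate 3 were almost level.

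The ratio of Col5a1 to Col5a2 was 1.04, 0.736 and 0.881 in WT and 1.12, 1.19 and 1.23 in KO, higher in each KO library than in any WT library. The ratio of Col6a3 to Col6a1 was 0.291, 0.353 and 0.336 in WT and 0.263, 0.262 and 0.274 in KO, lower in each KO library. For comparison, 15.4% of single genes tested did not overlap between genotypes, and no such share was computed for ratios. The ratio of Col4a3 to Col4a4 ranged from 0.564 to 1.65 and overlapped. A ratio's height depends on the length assumed for each gene but its order between libraries does not: with the longest coding transcripts Col1a1 to Col1a2 was 0.481 to 0.525 in WT and 0.416 to 0.477 in KO. For Col4a5 to Col4a6 and Col9a1 to Col9a2 no ratio was formed because a library had fewer than 3 counts.

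**Figure D5:**
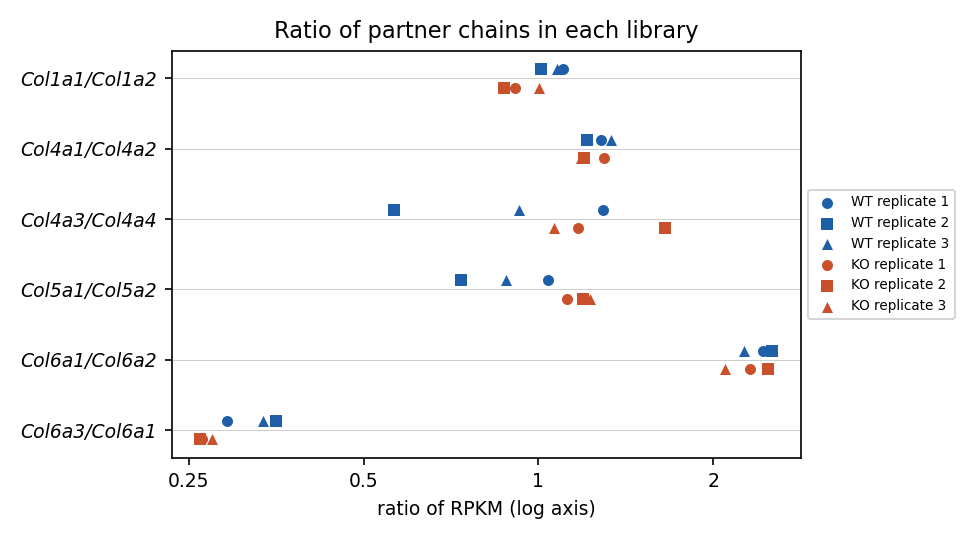
Ratio of the RPKM of partner chains in each library on a log axis, WT in blue and KO in orange, with the marker shape giving the replicate number. Col1a1/Col1a2 and Col6a3/Col6a1 lie lower and Col5a1/Col5a2 higher in KO without overlap, and the ratios of Col4a1/Col4a2, Col4a3/Col4a4 and Col6a1/Col6a2 overlap. The share of ratios without overlap among other genes was not computed.

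A RefSeq promoter window was found for 35 of the 44 collagen genes, 38 windows in all. Those without one were Col1a1, Col2a1, Col4a3, Col5a2, Col9a3, Col12a1, Col14a1, Col22a1 and Col26a1. A GC box was present on either strand in 23 of the 38 collagen windows (60.5%) and in 35.7% of 32851 windows of all genes. A CCAAT box was present in 13 (34.2%) against 37.4%, and a TATA box in 5 (13.2%) against 13.6%. No occurrence overlapped another in the windows shown. These are matches of letters and were not compared with binding data.

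The genes that make, process and bind collagen were counted by lists. Of 22 tested genes for collagen folding and modification, such as the prolyl and lysyl hydroxylases and the chaperone Serpinh1, 0 passed the DEG thresholds, with a median log2 fold change of -0.12 against -0.004 over all genes. The lowest p in this list was that of P4ha2, a prolyl 4-hydroxylase subunit, at 13.6, 13.6 and 15.6 CPM in WT and 14.1, 9.46 and 11.0 CPM in KO (log2 fold change -0.31, SE 0.16, adjusted p = 0.554 with edgeR). Of 9 genes for procollagen cleavage and cross-linking 0 passed, with a median of -0.11. Loxl1, a lysyl oxidase, had the lowest p there (log2 fold change -0.60, SE 0.34, adjusted p = 0.606 with edgeR).

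Of 13 tested genes of collagen breakdown 0 passed the DEG thresholds, and their median was -0.24. Timp3, an inhibitor of matrix metalloproteinases that is bound to the matrix, had the lowest p. It was at 34.5, 40.3 and 38.9 CPM in WT and at 52.9, 49.1 and 53.7 CPM in KO. The KO and WT libraries did not overlap, as for 15.4% of all genes, but the log2 fold change of 0.45 (SE 0.13, adjusted p = 0.301 with edgeR) was under the fold limit. Of 8 tested collagen receptors 0 passed, and 7 were estimated higher in KO, with a median of 0.23. Itga1, the integrin chain that pairs with Itgb1 to bind type IV collagen, was at 9.17, 7.16 and 6.59 CPM in WT and at 9.63, 11.8 and 9.88 CPM in KO. Its KO libraries were all above its WT libraries, without overlap as for 15.4% of all genes. Its log2 fold change was 0.45 (SE 0.16, adjusted p = 0.405 with edgeR). Itgb1 was the 1 receptor estimated lower in KO, at 103, 127 and 155 CPM in WT and at 129, 81.5 and 99.1 CPM in KO (log2 fold change -0.31, SE 0.20, adjusted p = 0.637 with edgeR).

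The matrix partners of collagen gave 1 call, which was lost without WT replicate 3 or without KO replicate 2. Among 16 tested basement membrane partners this call was Lama3, a laminin chain of epithelial basement membranes. Lama3 was higher in KO, the direction of 2.21% of all genes. It was at 0.786 to 1.18 CPM in KO and 0.329 to 0.592 CPM in WT (log2 fold change 1.05, SE 0.40, adjusted p = 0.438 with edgeR). The groups did not overlap for Lama3, as for 15.4% of all genes. The median of that list was -0.01, and Lama1 had no counts in any library. Of 9 small leucine-rich proteoglycans, which coat collagen fibrils, 0 passed and the median was 0.03. Fmod had the lowest p (log2 fold change 0.92, SE 0.70, adjusted p = 0.709 with edgeR). Of 12 interstitial glycoproteins 0 passed, with a median of -0.32 that became 0.08 without WT replicate 3, and Thbs1 had the lowest p (log2 fold change -0.97, SE 0.44, adjusted p = 0.511 with edgeR). Of 17 genes of TGF-beta signalling, the main inducer of fibrillar collagen in fibrosis, 0 passed and the median was -0.14. Mstn, the myostatin gene, had the lowest p there (log2 fold change -0.31, SE 0.15, adjusted p = 0.531 with edgeR). With a library left out, the lists of matrix and collagen-processing genes without a call had at most 2, except for 4 interstitial glycoproteins without WT replicate 2.

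Of the cell type markers, 0 of 12 fibroblast, 0 of 3 tendon cell, 0 of 10 endothelial, 0 of 7 Schwann cell, 0 of 5 adipocyte and 0 of 12 muscle fiber genes passed the DEG thresholds. The medians were -0.18, -0.41, 0.29, 0.28, 0.11 and 0.18. The lowest p in these lists were those of Ly6a (-0.31), Scx (-0.41), Flt1 (0.41), Mbp (0.40), Pparg (0.62) and Actn3 (0.43), given as log2 fold changes (adjusted p from 0.338 to 0.647 with edgeR). Without WT replicate 3 these medians were 0.10, -0.26, 0.14, 0.27, 0.01 and 0.11, so that the fibroblast median changed sign. All 10 endothelial markers were estimated higher in KO, and 6 of the 10 without WT replicate 3. Leaving out a library in turn gave at most 1 call in each of these 6 lists. Smooth muscle and pericyte markers gave 2 calls of 9, both higher in KO, the direction of 2.21% of all genes: Rgs5 was at 122 to 150 CPM in WT and 179 to 236 CPM in KO, and Myh11 at 5.63 to 9.33 CPM in WT and 9.65 to 16.6 CPM in KO. The groups did not overlap for either gene, nor for Tagln, Pdgfrb and Kcnj8, as for 15.4% of all genes. They overlapped for Acta2, Cspg4, Abcc9 and Notch3. The log2 fold changes of Rgs5 and Myh11 were 0.61 (SE 0.16, adjusted p = 0.299) and 0.83 (SE 0.23, adjusted p = 0.331) with edgeR. The list median was 0.40, with 8 genes estimated higher and 1 lower, Acta2 at -0.08, and Cspg4 was at 0.02. The list had 1 call without WT replicate 2, WT replicate 3 or KO replicate 2, and 4 without WT replicate 1. Rgs5 and Myh11 moved in the same direction as Col7a1 and Col24a1, and their part in those differences was not tested.

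The 13 tested leukocyte markers had a median of -1.09, which was -0.38 without WT replicate 3. Of the 13, 1 passed the DEG thresholds as higher and 1 as lower in KO, against 2.21% and 3.14% of all genes. These 2 calls became 1 without WT replicate 3, 9 without WT replicate 2 and 4 without KO replicate 1. Cd3e, a T cell gene, passed as higher in KO (log2 fold change 1.16, SE 0.34, adjusted p = 0.316 with edgeR) and Csf1r, a macrophage gene, as lower (log2 fold change -0.69, SE 0.28, adjusted p = 0.47 with edgeR), which fell short of the fold limit at -0.38 without WT replicate 3. Among 12 genes of the neuromuscular junction, where Col13a1 and the collagen-tailed Colq reside, the acetylcholine receptor subunits Chrna1 (log2 fold change -1.10, SE 0.40, adjusted p = 0.469 with edgeR) and Chrng (-2.51, SE 0.77, adjusted p = 0.356 with edgeR) passed as lower in KO. These were 2 of the 12 genes, in the direction of 3.14% of all genes. Chrng was near the floor, at 0.811, 0.685 and 2.64 CPM in WT and at 0.524, 0.122 and 0.0748 CPM in KO. Without WT replicate 3 the estimates were -0.66 for Chrna1 and -1.63 for Chrng, and the list kept 2 calls. The neuromuscular junction list had 1 call without KO replicate 3. Over the 17 lists 7 of 185 different genes tested (3.78%) passed the DEG thresholds, 4 as higher and 3 as lower in KO, against 5.35% of all genes.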

How the data were processed

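RNA from aged TA muscle of 3 WT and 3 KO samples was sequenced by the authors as paired-end reads, with libraries from the NEBNext Ultra RNA kit. Reads were aligned with HISAT2 and counted per gene with featureCounts, and the authors deposited raw counts for 55416 genes with a merged exon length. The submitters' processing notes name GRCm39 and the study's methods GRCm38. Of 52135 genes placed by GENCODE M21 (GRCm38), 1546 had the table's start and end, so windows were taken by symbol from RefSeq. Strand and multi-mapping settings are not given in the sources used here. Samples were grouped by genotype label. The WT column without a number was taken as replicate 1, since the others name replicates 2 and 3.

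Genes were kept with filterByExpr and TMM-scaled, and genotypes were compared with edgeR 4.0.16 (R 4.3.3), quasi-likelihood, robust, no covariates, with Benjamini-Hochberg adjustment over 15623 genes. DESeq2 1.42.0 was an alternative. RPKM and CPM were computed here from the counts. The steps were tested on simulated data. The members and lists were chosen with earlier results of these data known. Every tested collagen gene was followed. Those given in full were the 3 highest by mean RPKM of each type, those past the DEG thresholds, the 3 largest rises and falls, and partner chains. In each list, genes past the thresholds or, with none, the lowest p were named. Counts limit precision: 3 counts equal 0.103 to 0.118 CPM. Protein sequence features were planned and not analysed here.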

Additional observations from a re-analysis of the deposited data

How the results depend on the processing

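Of the 30 tested collagen genes, 2 passed the DEG thresholds, and the same 2, Col7a1 and Col24a1, did so with DESeq2, with DESeq2 size factors, with no filter on low counts, with at least 10 counts in every library, without robust estimation and without mitochondrially encoded genes. With an offset for gene length 1 remained, Col24a1 (Col7a1 fell to a log2 fold change of 0.57). A log2 fold change over 1 or an adjusted p under 0.05 left 0. Leaving out a library gave 1 to 7 collagen calls: 1 without KO replicate 2 and 7 without WT replicate 2. With no filter 1780 of 31780 genes passed (5.60%), against 836 of 15623 (5.35%). Medians with a library left out ranged from -0.75 to 0.07 for fibrillar, 0.005 to 0.55 for basement membrane and -0.51 to 0.12 for other types, the highest of each without WT replicate 3. With no filter on low counts the medians were -0.42, 0.09 and -0.015 for these types in the same order. With at least 10 counts in every library they were -0.48, 0.09 and -0.18. The companion lists gave 7 calls, 12 with DESeq2, 24 with no filter, 11 without robust estimation, and 6 to 28 with a library left out (17 without WT replicate 1, 28 without WT replicate 2, 13 without KO replicate 1). The cause was not tested.

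Estimates that changed sign with a library left out ranged from -0.21 to 0.053 for Col4a1, -0.12 to 0.12 for Col4a2, -0.85 to 0.04 for Col6a1, -0.14 to 0.64 for Col5a3, -0.82 to 0.16 for Col6a2, -0.006 to 0.57 for Col22a1, -0.75 to 0.35 for Col5a1, -1.08 to 0.052 for Col5a2, -0.044 to 0.43 for Col20a1, -0.18 to 0.46 for Col11a2, -0.78 to 0.078 for Col8a1, -0.21 to 0.17 for Col13a1, -0.075 to 0.63 for Col4a5, -0.85 to 0.84 for Col14a1, -0.66 to 0.071 for Col27a1 and -0.72 to 1.03 for Col12a1. Col4a2 was -0.033 with the offset for gene length.

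Same-numbered WT and KO deviations correlated at 0.06, 0.04 and -0.07, and those of different numbers at -0.14 to 0.09. With 3 libraries per genotype this does not settle whether the samples were paired. With a replicate block 2 collagen genes and 890 of all genes passed, and Col14a1 turned to 0.02. The block moved the median from -0.13 to -0.02 over all collagen genes and from -0.30 to -0.09 for fibrillar genes. The median moved from 0.18 to 0.23 for basement membrane genes and from -0.32 to -0.03 for other types. The length used per kilobase, an alternative chosen after seeing the data, gave a KO to WT ratio of summed collagen of 0.791 against 0.849. With 3 libraries per genotype and intervals as wide as -3.78 to 1.42 for Col3a1, differences of several fold in the interstitial genes were not detectable.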
